A study of Mus musculus with 12 samples.

Results

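The genes described here are Msi2, Igf2bp1, Igf2bp2, Igf2bp3, Lin28b and Hmga2, a set of RNA-binding and self-renewal genes known from fetal and stem cells, and 6 of the 20711 genes with a value here. They were read through the probe sets of a mouse exon array that list 1 of these symbols and no other gene. The array held 126 such probe sets among 318760 that name 1 gene: 32 for Msi2, 25 for Igf2bp1, 20 for Igf2bp2, 26 for Igf2bp3, 10 for Lin28b and 13 for Hmga2. Of the 126, 71 had a mean signal above 6.26 (log2), the median of all probe sets on the array and the level below which probe sets were kept out of the gene values. These were 30 for Msi2, 8 for Igf2bp1, 10 for Igf2bp2, 12 for Igf2bp3, 2 for Lin28b and 9 for Hmga2.

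All 12 arrays came from bone marrow progenitor cells of female C57B/6 mice, 12 weeks old and treated with fluorouracil, a drug that kills dividing cells and enriches the marrow for early progenitors. Every culture overexpressed HOXA9, a homeobox transcription factor of myeloid progenitors, from an MSCV retroviral vector, and was grown in serum with IL3, SCF and IL6. HOXA9+MEIS1 cells also received MEIS1, a homeobox partner of HOXA9. HOXA9+MDHD cells received MEIS1 with its DNA-binding homeodomain deleted, and HOXA9+MIY cells the empty vector MIY. Each of the 3 conditions had 4 arrays, 2 after 3 weeks and 2 after 4 weeks of culture. The design text calls the 4 experiments of a condition independent, but whether week 3 and week 4 arrays came from the same cultures is not stated, so p-values measure the spread between these arrays. No culture without HOXA9 was included.

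Msi2 encodes Musashi 2, which binds messenger RNAs and changes their translation, and is abundant in haematopoietic stem cells and in aggressive myeloid leukaemia. The 3 Igf2bp proteins bind and stabilise messenger RNAs such as that of Igf2. Igf2bp1 and Igf2bp3 are mostly fetal, whereas Igf2bp2 persists in adult tissues. Lin28b blocks the maturation of let-7 microRNAs and marks fetal blood progenitors, and Hmga2, an architectural chromatin protein and a let-7 target, supports the self-renewal of fetal stem cells.

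Promoter sequences from RefSeq on GRCm38.p6, from 250 bases before to 50 bases after an annotated transcript start, were matched for 5 of the 6 genes. That start is the outermost one of the gene in RefSeq for Igf2bp2 and Hmga2, but lies 29 bases inside the gene for the Msi2 window shown, 515 bases inside for Igf2bp3 and 16113 bases inside for Lin28b. They are shown for the pair of genes whose levels differed between conditions and for Lin28b, the one with matches to homeobox motifs. All 3 lie on the minus strand, the Msi2 window at chr11:88718228-88718527, the Igf2bp3 window at chr6:49214905-49215204 and the Lin28b window at chr10:45470152-45470451. Capitals mark TGACAG, the core of the site preferred by MEIS proteins, TGATTNAT, a composite PBX and HOX site, and CACGTG, an E-box bound by MYC and related factors, each searched on both strands.
Msi2: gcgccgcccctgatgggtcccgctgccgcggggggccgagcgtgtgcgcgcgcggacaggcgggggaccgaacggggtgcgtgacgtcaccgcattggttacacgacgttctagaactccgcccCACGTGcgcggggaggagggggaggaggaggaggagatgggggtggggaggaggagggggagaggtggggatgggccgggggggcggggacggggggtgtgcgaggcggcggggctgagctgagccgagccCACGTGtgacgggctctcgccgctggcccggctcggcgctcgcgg
Igf2bp3: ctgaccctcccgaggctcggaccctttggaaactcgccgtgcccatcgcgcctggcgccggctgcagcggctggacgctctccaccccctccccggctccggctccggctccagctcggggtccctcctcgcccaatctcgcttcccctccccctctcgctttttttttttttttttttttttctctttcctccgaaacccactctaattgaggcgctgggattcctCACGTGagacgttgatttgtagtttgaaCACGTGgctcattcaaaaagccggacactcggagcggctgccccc
Lin28b: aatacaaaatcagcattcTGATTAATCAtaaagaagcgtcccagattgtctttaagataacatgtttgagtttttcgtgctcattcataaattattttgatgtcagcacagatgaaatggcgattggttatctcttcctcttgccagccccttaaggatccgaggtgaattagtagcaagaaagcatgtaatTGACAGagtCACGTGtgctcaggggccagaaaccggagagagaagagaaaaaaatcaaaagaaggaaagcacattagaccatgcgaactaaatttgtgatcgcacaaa
The windows of Msi2 and Igf2bp3 held 2 E-boxes each and neither homeobox motif. The Lin28b window, which is not at the outermost start of its gene, held 1 MEIS core, 1 E-box and 2 overlapping PBX and HOX matches. The Igf2bp2 and Hmga2 windows held none of these motifs. Msi2 had 3 overlapping windows in all, each with 2 E-boxes. Of 32851 such windows of all genes, 19.2% held the MEIS core, 3.22% the PBX and HOX motif and 7.15% the E-box. A match is a description of these letters, not a binding site.

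The vectors and the cell types were checked first. Hoxa9 averaged 13.37 in HOXA9+MEIS1, 13.35 in HOXA9+MDHD and 13.29 in HOXA9+MIY (log2 gene value) and was not called in any comparison. Meis1 averaged 9.38 in HOXA9+MEIS1 and 9.15 in HOXA9+MDHD, against 6.80 in HOXA9+MIY, and was called higher with both vectors (log2 2.58 and 2.36). The gene value did not tell the MEIS1 vectors apart (difference 0.22, adjusted p = 0.361 by limma). Differentiation markers moved with the conditions. In HOXA9+MEIS1 against HOXA9+MIY, 9 of 9 late neutrophil markers and 4 of 7 monocyte markers were lower, and 1 monocyte marker was higher. Of early progenitor markers, a list that holds Meis1 and Hoxa9 themselves, 4 of 7 were higher. Over all genes 5.25% were called higher and 5.52% lower. In other lists 2 of 5 primary granule, 2 of 5 megakaryocyte, 1 of 4 eosinophil and 1 of 5 B lymphoid markers were lower. Of stromal and endothelial markers 2 of 8 were higher, and of erythroid markers 1 of 6. The late neutrophil markers averaged 8.09 to 8.48 on HOXA9+MEIS1 arrays, 8.74 to 10.57 on HOXA9+MDHD arrays and 10.48 to 11.29 on HOXA9+MIY arrays, and the early progenitor markers 10.67 to 10.86, 10.08 to 10.47 and 9.44 to 9.57. Of mast cell and basophil markers limma called 0 of 8 (2 at an unadjusted p under 0.05). Of T and NK markers it called 0 of 5 (1 at an unadjusted p under 0.05). All 126 probe sets are read from whole cultures, in which fewer cells of a type and less RNA per cell cannot be told apart, and the part of cell composition in the differences below was not tested.

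**Figure D1:**
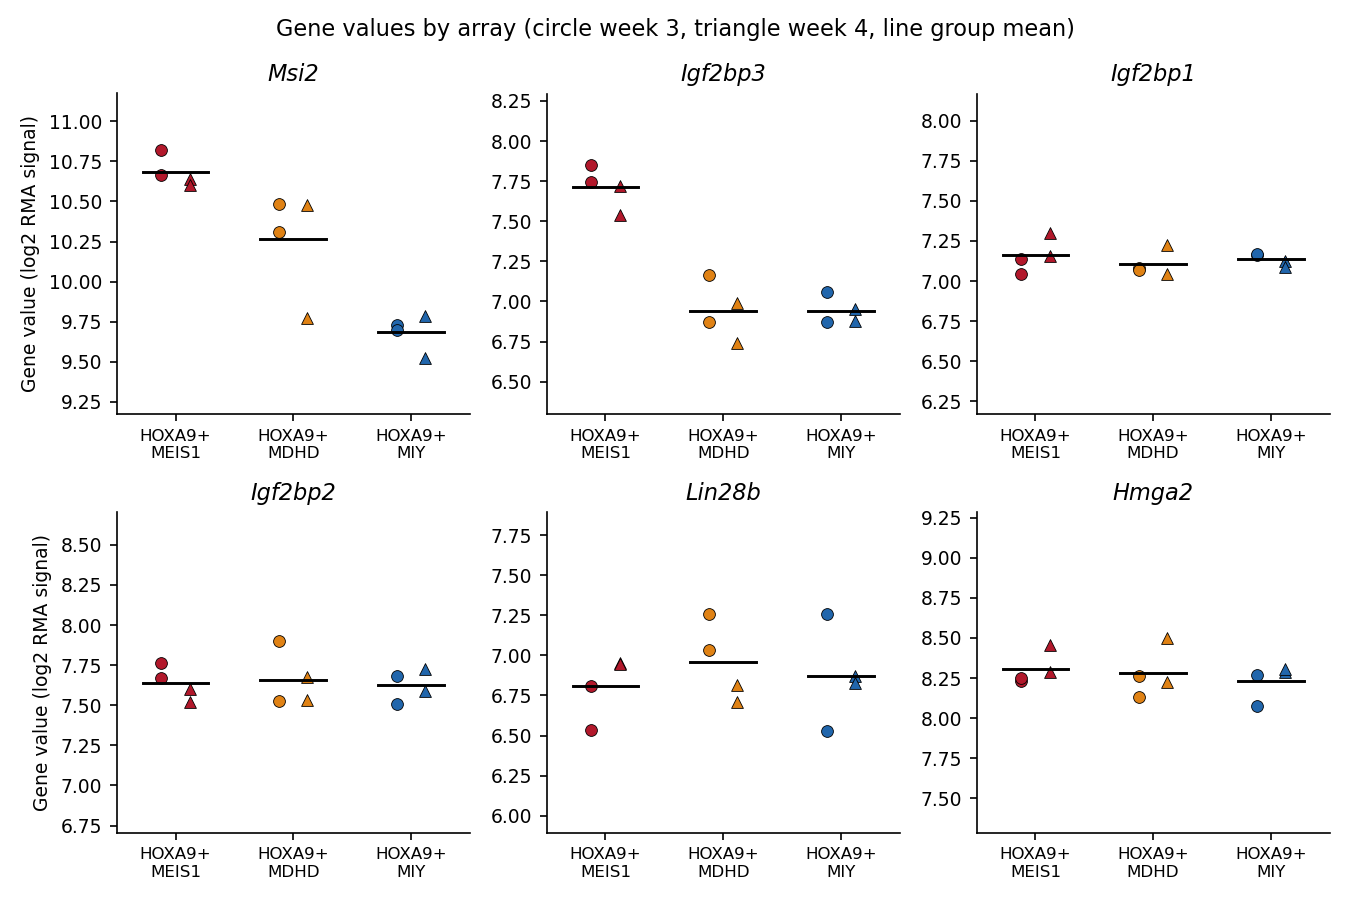
Gene value of each of the 6 genes (vertical axis, log2 RMA signal, 2 units shown in every panel) on the 12 arrays, by condition (horizontal axis), with circles for week 3, triangles for week 4 and lines at the group means. Msi2 stands at 10.60 to 10.82 in HOXA9+MEIS1 and at 9.52 to 9.79 in HOXA9+MIY, Igf2bp3 stands at 7.54 to 7.85 in HOXA9+MEIS1 and at 6.74 to 7.16 in HOXA9+MDHD, and the other 4 genes overlap between all conditions.

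Setting HOXA9+MEIS1 against HOXA9+MIY addresses the effect of MEIS1 on top of HOXA9. Msi2 and Igf2bp3 rose, and Igf2bp1, Igf2bp2, Lin28b and Hmga2 were not called. Thus 2 of the 6 genes passed the test (adjusted p under 0.05 by limma, adjusted over all genes), both higher, against 10.8% of all 20711 genes in either direction, 5.25% called higher and 5.52% called lower.

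For Msi2, the gene values were 10.67 and 10.82 at week 3 and 10.64 and 10.60 at week 4 in HOXA9+MEIS1, against 9.73 and 9.70 at week 3 and 9.52 and 9.79 at week 4 in HOXA9+MIY. Every HOXA9+MEIS1 array stood above every HOXA9+MIY array, which held in the higher direction for 5.06% of all genes. The means were 10.68 ± 0.0964 in HOXA9+MEIS1 and 9.69 ± 0.113 in HOXA9+MIY (SD, n = 4 each), a 2.00-fold difference (log2 1.00 ± 0.124 SE, 95% interval 0.73 to 1.27, adjusted p = 2.35e-04 by limma). It was 0.97 at week 4 and 1.03 at week 3.

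For Igf2bp3, the gene values were 7.74 and 7.85 at week 3 and 7.72 and 7.54 at week 4 in HOXA9+MEIS1, against 7.06 and 6.88 at week 3 and 6.88 and 6.95 at week 4 in HOXA9+MIY. The groups did not overlap, as for 5.06% of all genes in the higher direction. The means were 7.71 ± 0.130 and 6.94 ± 0.0872 (SD, n = 4 each), a 1.71-fold difference (log2 0.77 ± 0.0870 SE, 95% interval 0.58 to 0.96, adjusted p = 1.22e-04 by limma). It was 0.72 at week 4 and 0.83 at week 3. Of the 12 probe sets in this gene value, 3 (4400382, 5194304 and 5265817) had a mean above 6.26 in HOXA9+MEIS1 and in neither other group, so that the filter let them in through the group where they were high. With probe sets taken by their HOXA9+MIY mean instead, an alternative added after seeing the data, the other 9 remained and the difference was 0.71 (adjusted p = 2.18e-04 by limma), and with no filter it was 0.94 (adjusted p = 1.58e-05 by limma). With those above 7.725, the 75th percentile of the array, 4 of the 26 were left, of which 1 was called, and the difference was -0.03 (adjusted p = 0.886 by limma).

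By probe set, limma called 0 of the 68 of the other 4 genes (0 also at an unadjusted p under 0.05). Their gene values differed by between -0.06 and 0.07 (log2), with 95% intervals that together ran from -0.41 to 0.29 and adjusted p of at least 0.639 by limma. Lin28b, with 2 probe sets in its gene value, had the widest interval, and its arrays ranged from 6.54 to 6.95 in HOXA9+MEIS1 and from 6.53 to 7.26 in HOXA9+MIY. Hmga2 ranged from 8.23 to 8.46 in HOXA9+MEIS1 and from 8.07 to 8.31 in HOXA9+MIY. Igf2bp1 ranged from 7.04 to 7.30 in HOXA9+MEIS1 and from 7.09 to 7.17 in HOXA9+MIY, and Igf2bp2 from 7.52 to 7.77 and from 7.51 to 7.72. In all 4 genes the arrays of the conditions overlapped. The 3 Igf2bp genes are alike in sequence, as are Msi2 and Msi1, and how far their probes respond to each other's RNA could not be checked here, since the probe sequences were not used. Msi1 was not called (log2 0.05).

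Single probe sets of Msi2 gave the same direction as its gene value. Of 32, 23 were called higher and 0 lower, by log2 0.58 to 1.60, against 3.2% of all probe sets called higher and 3.5% called lower (6.7% in either direction). The median over all 32 was 1.10, beside 0.00 over all 318760 probe sets. Probe set 4996418, the brightest, read 12.71, 12.88, 12.64 and 12.47 in HOXA9+MEIS1 and 11.90, 11.86, 11.84 and 11.95 in HOXA9+MIY (log2 0.79, adjusted p = 1.10e-05 by limma). No value of the groups overlapped there. The next brightest, 5121117, differed by 1.16 (adjusted p = 7.60e-06 by limma). The differences were largest at 4329149 and 4450564 (1.60 each), 4907676 (1.57), 5173903 (1.53) and 5134378 (1.51). At 4329149 the arrays read 11.36, 11.47, 11.35 and 11.41 in HOXA9+MEIS1, against 9.80, 9.86, 9.58 and 9.94 in HOXA9+MIY. Of the 9 probe sets not called, the differences lay between -0.10 and 0.88.

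**Figure D2:**
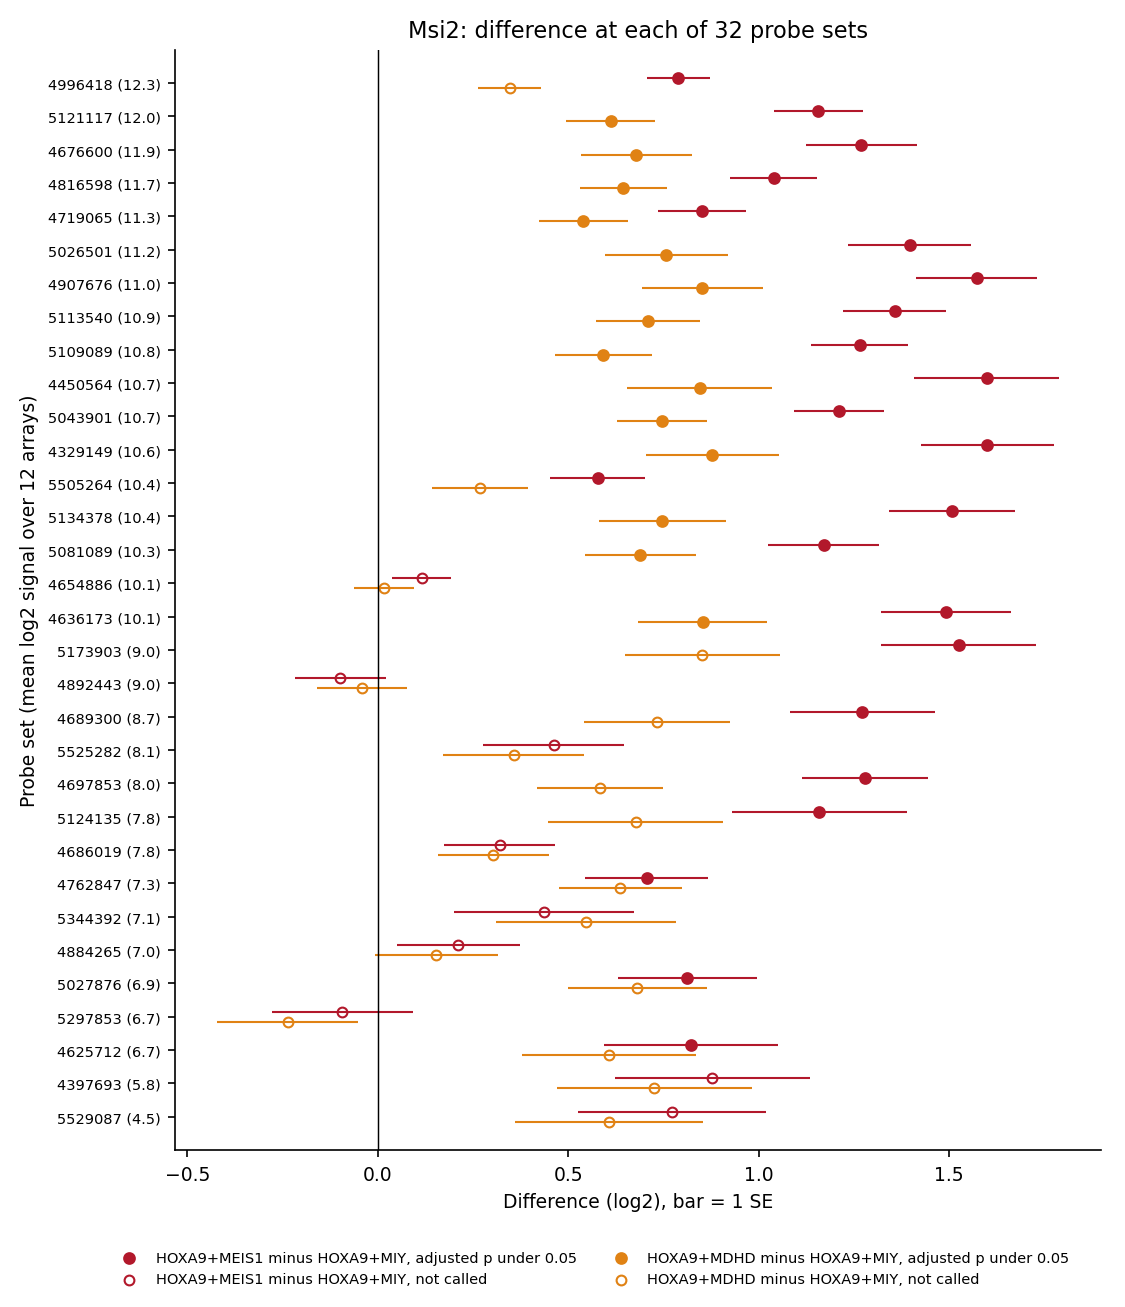
Log2 difference (horizontal axis, bars 1 SE) of HOXA9+MEIS1 minus HOXA9+MIY and of HOXA9+MDHD minus HOXA9+MIY at each of the 32 Msi2 probe sets (vertical axis, ordered by mean signal, given in brackets), filled where called. In HOXA9+MEIS1 23 are called, and in HOXA9+MDHD 14 are called, between 0.54 and 0.88, a count that ran from 1 to 24 with 1 array left out.

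Single probe sets of Igf2bp3 were less uniform. Of 26, 16 were called higher and 0 lower, against 3.2% of all probe sets called higher and 3.5% called lower (6.7% in either direction). The median log2 difference over all 26 was 0.90, beside 0.00 over all 318760 probe sets. The arrays did not overlap at any of the 16, as at 4% of all probe sets in the higher direction. They were divided by whether their group means stood above 6.26, since a fold against a dim mean is uncertain.

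Both means stood above that level at 5 of the 16, where HOXA9+MEIS1 was 1.77-fold to 2.78-fold higher. Among these, 4727197 read 9.06, 8.98, 8.75 and 8.81 in HOXA9+MEIS1 and 7.78, 7.46, 7.75 and 7.80 in HOXA9+MIY (log2 1.20, adjusted p = 1.27e-05 by limma). At 6 others HOXA9+MEIS1 alone stood above the level, and the fold was at least 1.69 to at least 3.44, where an array below the level counts as standing at it. The last 5 stood below it in both groups and are given no fold. The measured difference was largest at 5144399, which read 8.26, 7.60, 7.09 and 7.35 in HOXA9+MEIS1 and 4.41, 4.11, 3.77 and 2.98 in HOXA9+MIY, or at least 2.49-fold (log2 3.76, adjusted p = 6.43e-08 by limma). The highest bound was that of 5265817, which read 8.34, 8.09, 7.97 and 7.77 against 5.43, 5.58, 5.81 and 6.17, or at least 3.44-fold (log2 2.30, adjusted p = 1.22e-06 by limma). No HOXA9+MIY array reached a HOXA9+MEIS1 array at either.

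The 10 Igf2bp3 probe sets not called differed by between -0.25 and 0.79. The 0.79 was that of 4400382, where the arrays did not overlap (adjusted p = 0.0594 by limma). Also among the 10 were the brightest pair. At 4450610 the arrays read 8.54, 8.62, 8.86 and 8.52 in HOXA9+MEIS1 and 9.06, 8.54, 8.76 and 8.87 in HOXA9+MIY (log2 -0.17, adjusted p = 0.610 by limma). At 4756555 they read 8.44, 8.63, 8.49 and 8.46 in HOXA9+MEIS1 and 8.54, 8.52, 8.59 and 8.45 in HOXA9+MIY (log2 -0.02, adjusted p = 0.969 by limma). At both, the groups overlapped.

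Whether a probe set differed from the rest of its gene was tested with limma's diffSplice on probe sets above 6.26. Of the 12 Igf2bp3 probe sets 3 had a higher and 4 a lower difference than the rest, but 2 of the 3 (5194304 and 5265817) were among those that passed the level through HOXA9+MEIS1 alone. Of the 30 Msi2 probe sets 0 had a higher and 4 a lower one, against 1.33% of all probe sets tested. By gene, the differences among probe sets were called for Igf2bp3 (adjusted p = 3.14e-20 by limma) and Msi2 (adjusted p = 6.17e-18 by limma), against 5.86% of all genes tested. The Igf2bp3 result rests on the same 12 probe sets, and with no filter Igf2bp3 was called too (adjusted p = 1.08e-48 by limma). With no filter on dim probe sets 20 probe sets of the 6 genes were called (1.28% of all), and for Igf2bp3 7 of 26 were higher and 9 lower than the rest. The 4 lower ones and 5265817 were still among them, and 4470002 and 5194304 were not. The test takes 1 spread for all probe sets of a gene. A test with the own spread of each probe set, added after seeing the data, gave 2 higher (4470002 and 5265817) and 4 lower (4450610, 4626778, 4756555 and 4796873) for Igf2bp3, and 8 higher and 4 lower for Msi2 (background 1.46%). Both tests, here and against HOXA9+MDHD, used the same 12 Igf2bp3 probe sets. The filter let in 3 of these, 5265817 among them, through HOXA9+MEIS1. No probe set of the other 4 genes was called by either test. In HOXA9+MEIS1 against HOXA9+MDHD both tests gave 2 higher and 4 lower for Igf2bp3 (backgrounds 0.579% and 0.486%) and 0 for Msi2, and by gene diffSplice called Igf2bp3 (2.79% of genes). In HOXA9+MDHD against HOXA9+MIY diffSplice gave 1 lower for Msi2 and 0 for Igf2bp3 (0.238%). On simulated data where no probe set differed, diffSplice called 0.282% and the own-spread test 0. The simulated noise was independent between probe sets, so the rate of false calls on these arrays can differ. Whether the 1 Msi2 probe set is a false call cannot be told. By gene diffSplice called Msi2 (adjusted p = 0.0420 by limma, 1.22% of genes), a call that ended with no filter (adjusted p = 0.117 by limma). The own-spread test gave 0 for both (0.057%). Where these probe sets lie along the genes was not used here.

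**Figure D3:**
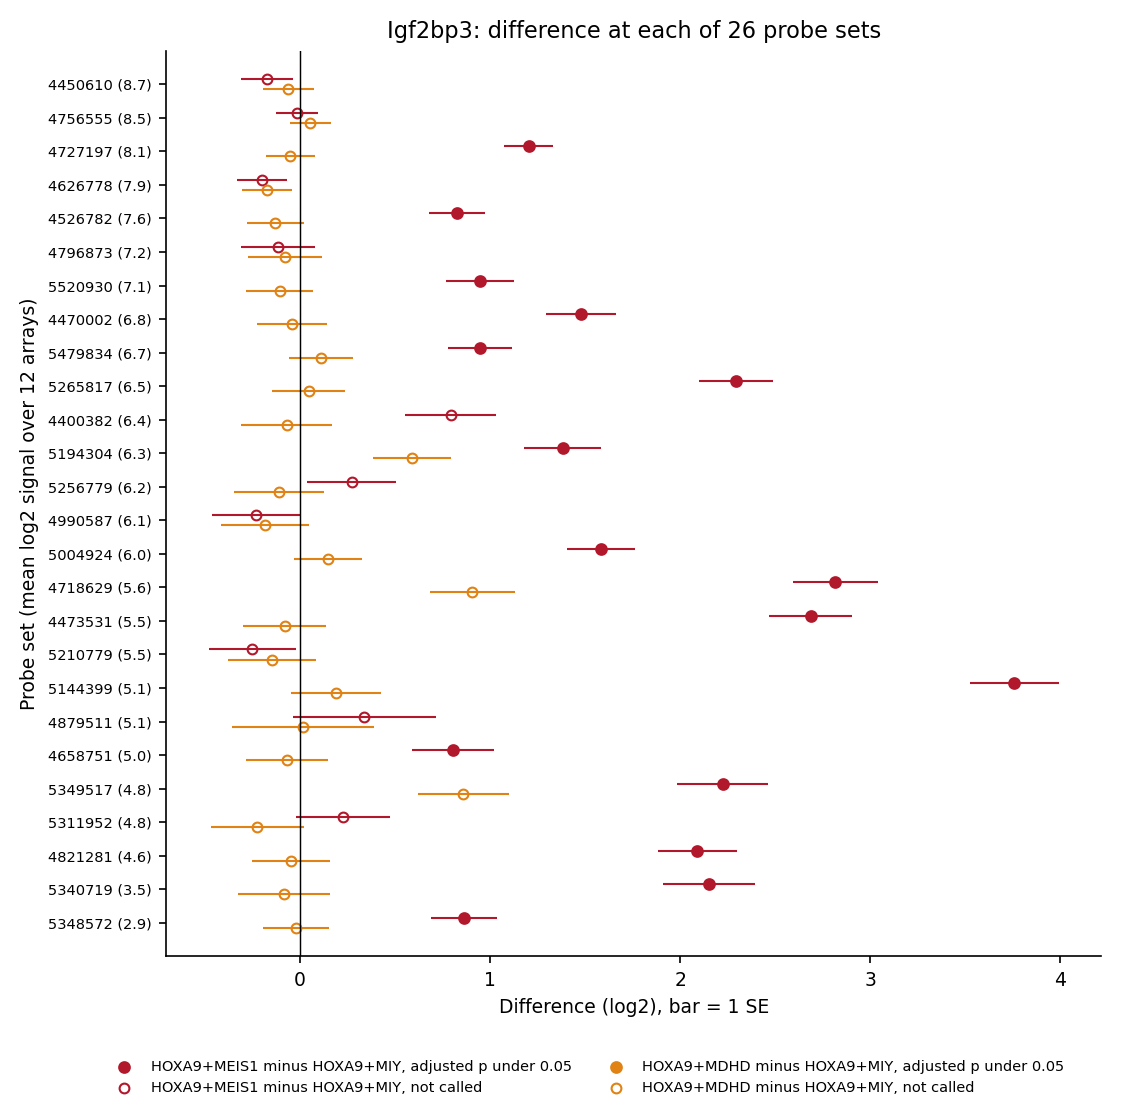
Log2 difference (horizontal axis, bars 1 SE) of HOXA9+MEIS1 minus HOXA9+MIY and of HOXA9+MDHD minus HOXA9+MIY at each of the 26 Igf2bp3 probe sets (vertical axis, ordered by mean signal, given in brackets), filled where called. With MEIS1, 16 are called. Differences against a group below 6.26 are not exact, such as the 3.76 of 5144399 (at least 2.49-fold), while the brightest pair stand at -0.17 and -0.02, and with MDHD 0 are called.

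**Figure D4:**
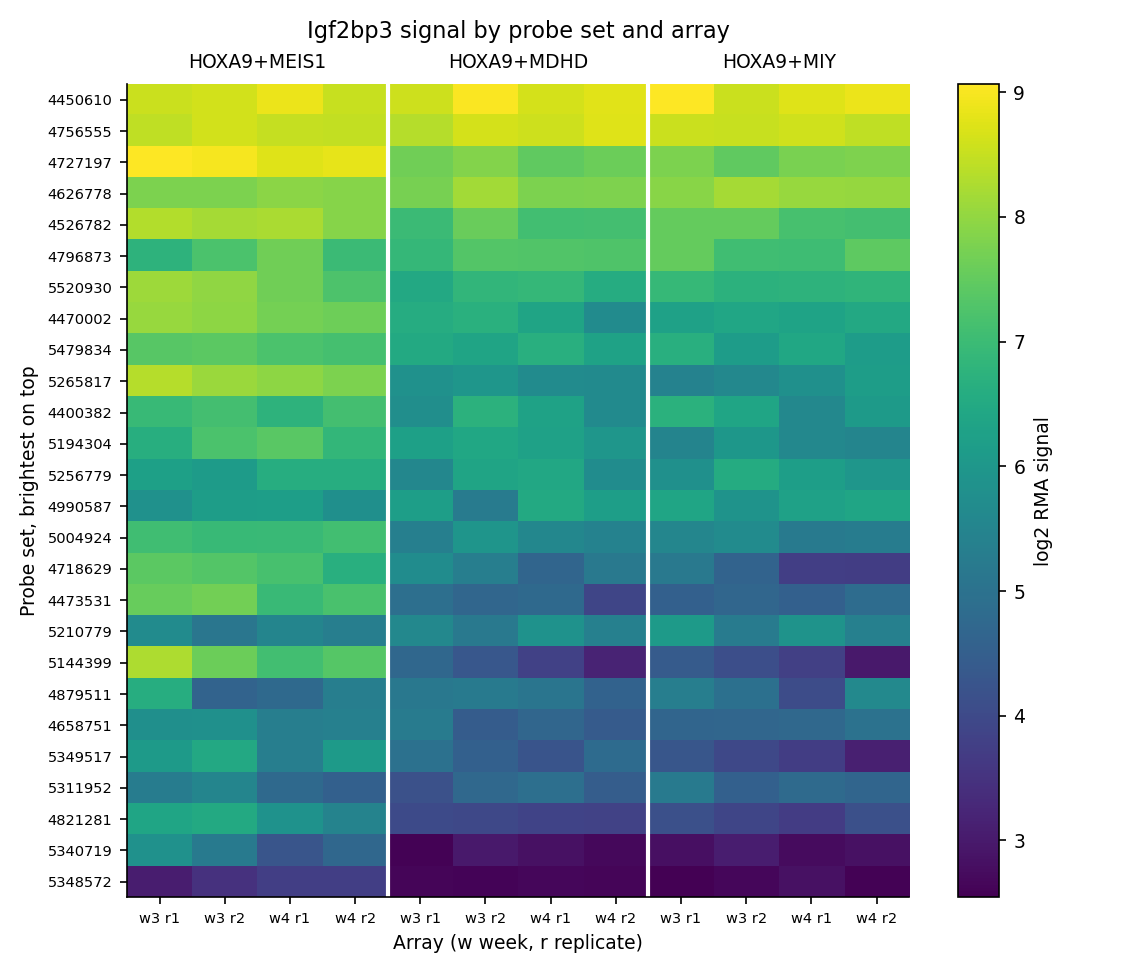
Deposited log2 RMA signal (colour) of the 26 Igf2bp3 probe sets (rows, brightest on top) on the 12 arrays (columns, by condition, week and replicate). Probe set 5144399 reads 7.09 to 8.26 in HOXA9+MEIS1, 3.20 to 4.71 in HOXA9+MDHD and 2.98 to 4.41 in HOXA9+MIY, while 4450610 reads 8.52 to 9.06 throughout.

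Setting HOXA9+MDHD against HOXA9+MIY addresses the effect of MEIS1 that lacks the homeodomain. It shares its HOXA9+MIY arrays with the comparison above. Msi2 was called higher and the other 5 genes were not, so that 1 of 6 passed the test against 1.97% of all genes (0.942% higher and 1.03% lower).

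For Msi2, HOXA9+MDHD read 10.49 and 10.31 at week 3 and 10.48 and 9.78 at week 4, against the HOXA9+MIY arrays at 9.52 to 9.79. The groups overlapped through replicate 2 of week 4 in HOXA9+MDHD, and the other 3 arrays stood above all of HOXA9+MIY. The mean was 10.26 ± 0.335 in HOXA9+MDHD and 9.69 ± 0.113 in HOXA9+MIY (SD, n = 4 each), a 1.49-fold difference (log2 0.58 ± 0.124 SE, 95% interval 0.31 to 0.85, adjusted p = 0.0384 by limma). It was 0.47 at week 4 and 0.68 at week 3. The call held without the low array (log2 0.73), and ended without any 1 of the other 11 arrays (0.47 to 0.64, highest adjusted p = 0.122 by limma).

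On that low array the markers of mature cells were also nearer to those of HOXA9+MIY. Its late neutrophil markers averaged 10.57, against 8.74 to 9.89 on the other 3 HOXA9+MDHD arrays and 10.48 to 11.29 in HOXA9+MIY. Its monocyte markers averaged 10.38, against 9.44 to 9.67 on the other 3 and 10.12 to 10.31 in HOXA9+MIY. Its early progenitor markers, a list that holds Meis1 itself, averaged 10.08, below the other 3 (10.25 to 10.47) and above HOXA9+MIY (9.44 to 9.57). Meis1 stood at 9.02 on it and at 8.92 to 9.40 on the other 3, against a mean of 6.80 in HOXA9+MIY. The part of these markers in the Msi2 values was not tested.

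For Igf2bp3, HOXA9+MDHD read 6.87 and 7.16 at week 3 and 6.99 and 6.74 at week 4, against 6.88 to 7.06 in HOXA9+MIY. The groups overlapped, with means of 6.94 ± 0.180 and 6.94 ± 0.0872 (SD, n = 4 each) and a 95% interval of the difference from -0.19 to 0.19 (adjusted p = 1.00 by limma). The other 4 genes differed by between -0.03 and 0.08, with intervals from -0.27 to 0.44. Lin28b had the widest of them, with arrays at 6.71 to 7.26 in HOXA9+MDHD and 6.53 to 7.26 in HOXA9+MIY. Igf2bp1 ranged from 7.04 to 7.22, Igf2bp2 from 7.53 to 7.90 and Hmga2 from 8.13 to 8.50 in HOXA9+MDHD.

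By probe set, 14 of 32 for Msi2 and 0 of 26 for Igf2bp3 were called, the 14 higher by log2 0.54 to 0.88, against 0.685% of all probe sets called higher and 0.534% called lower (1.22% in either direction). The 14 of Msi2 became 24 without replicate 2 of week 4 in HOXA9+MDHD, 1 without replicate 1 of week 4 in HOXA9+MIY, and 0 with no week term, with week 4 alone or without a trend in eBayes. For Igf2bp3, limma gave an unadjusted p under 0.05 at 3 of the 26. At 4 of the 14 the arrays did not overlap, as at 1.69% of all probe sets in the higher direction. Probe set 4996418 read 12.32, 12.18, 12.39 and 12.03 in HOXA9+MDHD, above all HOXA9+MIY arrays (11.84 to 11.95), but was not called (log2 0.35, adjusted p = 0.0548 by limma). Probe set 4329149 read 10.95, 10.65, 11.13 and 9.95 in HOXA9+MDHD, just clear of the 9.58 to 9.94 in HOXA9+MIY (log2 0.88, adjusted p = 0.0201 by limma). Across the 26 of Igf2bp3 the differences ran from -0.23 to 0.91 with a median of -0.06. The 0.91 belonged to 4718629, which read 5.73, 5.33, 4.68 and 5.19 in HOXA9+MDHD and 5.19, 4.63, 3.74 and 3.74 in HOXA9+MIY, below 6.26 on every one of these arrays (adjusted p = 0.0630 by limma). At 5144399 HOXA9+MDHD read 4.71, 4.30, 3.81 and 3.20, overlapping HOXA9+MIY.

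Setting HOXA9+MEIS1 against HOXA9+MDHD addresses the homeodomain itself, on arrays that also enter the comparisons above. Igf2bp3 was higher with full-length MEIS1 in every array, as were 2.68% of all genes. The difference was log2 0.77 ± 0.0870 SE (1.71-fold, 95% interval 0.58 to 0.96, adjusted p = 3.23e-04 by limma). It was 0.76 at week 4 and 0.78 at week 3, and 0.73 with the 9 probe sets taken by their HOXA9+MIY mean (adjusted p = 4.91e-04 by limma). By probe set 16 of its 26 were called higher, against 1.24% of all probe sets called higher, 1.53% called lower and 2.78% in either direction. At all 16 the arrays did not overlap, as at 2.14% of all probe sets in the higher direction. Both means stood above 6.26 at 5 of them, which were 1.78-fold to 2.86-fold higher. At 6 HOXA9+MEIS1 alone stood above it, by at least 1.64-fold to at least 3.44-fold, and the last 5 stood below it in both groups and are given no fold. With the stricter level of 7.725 the difference was not called (log2 0.01, adjusted p = 0.989 by limma).

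Msi2 differed by 0.42 ± 0.124 SE (1.34-fold, 95% interval 0.15 to 0.69) and was not called (adjusted p = 0.0907 by limma), although all 4 HOXA9+MEIS1 arrays (10.60 to 10.82) stood above all 4 HOXA9+MDHD arrays (9.78 to 10.49), as in 2.68% of all genes. It was called without replicate 1 of week 4 in HOXA9+MDHD (log2 0.53, adjusted p = 0.0227 by limma). With the stricter level Msi2 was called too (log2 0.534, adjusted p = 0.0333 by limma). The called member there was thus Msi2 in place of Igf2bp3. Msi2 was not called in the other 14 settings, nor with any of the other 11 arrays left out. By probe set 12 of 32 were called higher, by 0.44 to 0.76, a count of 3 without replicate 2 of week 3 in HOXA9+MEIS1 and of 0 with no week term, with week 4 alone or without a trend in eBayes. Thus 1 of the 6 genes passed, against 4.39% of all genes (2.28% higher and 2.11% lower). The other 4 genes differed by between -0.15 and 0.06, with 95% intervals from -0.50 to 0.21.

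Taking the gene values of the 3 conditions in order, Msi2 was highest in HOXA9+MEIS1 (10.68), then HOXA9+MDHD (10.26), then HOXA9+MIY (9.69), with no call between the first and the second. Igf2bp3 was highest in HOXA9+MEIS1 (7.71), with HOXA9+MDHD and HOXA9+MIY at 6.94 each. Igf2bp1 (7.16, 7.10 and 7.14), Igf2bp2 (7.64, 7.66 and 7.63), Lin28b (6.81, 6.96 and 6.87) and Hmga2 (8.31, 8.28 and 8.23) had no order beyond the spread.

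Between the weeks, 0 of the 6 gene values passed the test (1 at an unadjusted p under 0.05 by limma), whereas 39.8% of all genes did, 11.7% higher and 28.1% lower at week 4. Hmga2 came nearest, higher at week 4 by log2 0.14 ± 0.0580 SE (adjusted p = 0.0704 by limma). At 2 of its 13 probe sets, 5388965 and 5420157, week 4 was higher by 0.83 and 0.88 (adjusted p = 0.00561 and 4.70e-04 by limma), against 7.46% of all probe sets called higher (30.6% in either direction). At 5420157 the arrays read 7.86, 8.84, 8.72, 8.15, 8.02 and 8.27 at week 4, against 7.37, 7.82, 7.70, 7.47, 7.05 and 7.15 at week 3. All week 4 arrays stood above all week 3 arrays there, narrowly (lowest 7.86 against highest 7.82). How many of all probe sets separate the weeks in this way was not counted. Msi2 had 7 of 32 probe sets lower at week 4, by 0.32 to 0.75, a share near the 23.2% called lower over all probe sets. Igf2bp3 had 2 of 26 lower (4718629 by log2 0.74 and 5144399 by 0.86), Igf2bp1 had 1 of 25 (4986241 by 0.60) and Igf2bp2 had 1 of 20 (4925425 by 0.34).

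No difference between conditions was found to depend on the week. For all 6 genes and all 3 comparisons the interaction was not called, as for 0% of all genes and for 0%, 0% and 0.00282% of all probe sets, none of them of a member (unadjusted p under 0.05 by limma in 1 of the 6 genes for HOXA9+MEIS1 minus HOXA9+MDHD and in 0 for the others). The lowest p was that of Lin28b in HOXA9+MEIS1 minus HOXA9+MDHD, at 0.19 in week 4 and -0.48 in week 3 (change of the difference 0.66 ± 0.288 SE, unadjusted p = 0.0444 and adjusted p = 0.658 by limma).

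Genes around the same pathways were read from 4 lists. The let-7 and Lin28 machinery had 16 measured genes, of which 2 were higher and 0 lower in HOXA9+MEIS1 than in HOXA9+MIY, a share near the 10.8% of all genes called (5.25% higher): Zcchc11, a uridylyltransferase that acts on let-7 precursors with Lin28 (log2 0.39 ± 0.0958 SE, adjusted p = 0.0215 by limma), and Hnrnpa1, an RNA-binding protein that also binds a let-7 precursor (0.20). The median was 0.00, beside -0.01 over all genes. In HOXA9+MDHD against HOXA9+MIY limma called 0 of the 16 (4 at an unadjusted p under 0.05). In HOXA9+MEIS1 against HOXA9+MDHD it called 1 of the 16, near the 4.39% of all genes called. That was Lin28 itself, the paralog of Lin28b, 0.28 higher in HOXA9+MEIS1 (adjusted p = 0.0465 by limma).

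Of 33 fetal programme genes and let-7 targets, 1 was higher and 2 were lower in HOXA9+MEIS1 than in HOXA9+MIY, a share near the 10.8% of all genes called. They were Tgfbr1, a TGF-beta receptor (0.38), and the lymphoid transcription factor genes Bcl11a (-0.28) and Arid3a (-0.21). The median was -0.02 and limma called 0 in HOXA9+MDHD against HOXA9+MIY (5 at an unadjusted p under 0.05). In HOXA9+MEIS1 against HOXA9+MDHD 2 of the 33 were called, near the 4.39% of all genes called. Igf2r, the receptor that clears IGF2, was 1.09 higher (adjusted p = 0.0248 by limma) and the insulin receptor substrate gene Irs2 0.63 higher (adjusted p = 0.0285 by limma). Igf2r averaged 9.81 in HOXA9+MEIS1, 8.71 in HOXA9+MDHD and 9.58 in HOXA9+MIY, HOXA9+MDHD being the lowest.

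Of 38 other RNA-binding protein genes of stem and progenitor cells, 2 were higher and 3 lower in HOXA9+MEIS1 than in HOXA9+MIY, a share near the 10.8% of all genes called, with a median of 0.02. Zfp36l1, which promotes decay of messenger RNAs with AU-rich elements, was 2.08-fold lower (log2 -1.06 ± 0.120 SE, adjusted p = 1.31e-04 by limma). It averaged 8.17 ± 0.410 in HOXA9+MEIS1, 8.92 ± 0.576 in HOXA9+MDHD and 9.22 ± 0.275 in HOXA9+MIY (SD, n = 4 each). The splicing factor gene Mbnl1 was lower by log2 0.37, the p53-induced Rbm38 0.38 higher and the RNA demethylase gene Fto 0.19 higher. In HOXA9+MDHD against HOXA9+MIY limma called 0 of the 38 (4 at an unadjusted p under 0.05). In HOXA9+MEIS1 against HOXA9+MDHD Zfp36l1 (-0.75) and Mbnl1 (-0.37) were lower, 2 of the 38, near the 4.39% of all genes called.

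Of 24 genes reported as targets of Msi2 or of the Igf2bp proteins, 4 were higher and 4 lower in HOXA9+MEIS1 than in HOXA9+MIY, against 5.25% of all genes called higher and 5.52% called lower, with a median of 0.06. The list holds Hoxa9, which every culture overexpressed, and progenitor markers such as Kit and Myb. The largest differences were those of Klf4, a transcription factor of monocytes (-1.43), Gpr56, an adhesion receptor of stem cells (1.08), Ikzf2, a transcription factor of the Ikaros family (1.02), and Bcl2, which blocks apoptosis (0.83). Numb, an inhibitor of Notch signalling and a textbook Musashi target, was lower by log2 0.42 ± 0.0597 SE (adjusted p = 5.94e-04 by limma) and is named after its values were seen. In HOXA9+MDHD against HOXA9+MIY, Gpr56 was higher (0.90) and Notch1, the receptor, lower (-0.41), the only called ones of the 24, against 1.97% of all genes. In HOXA9+MEIS1 against HOXA9+MDHD 1 was higher and 2 were lower, against 4.39% of all genes called.

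**Figure D5:**
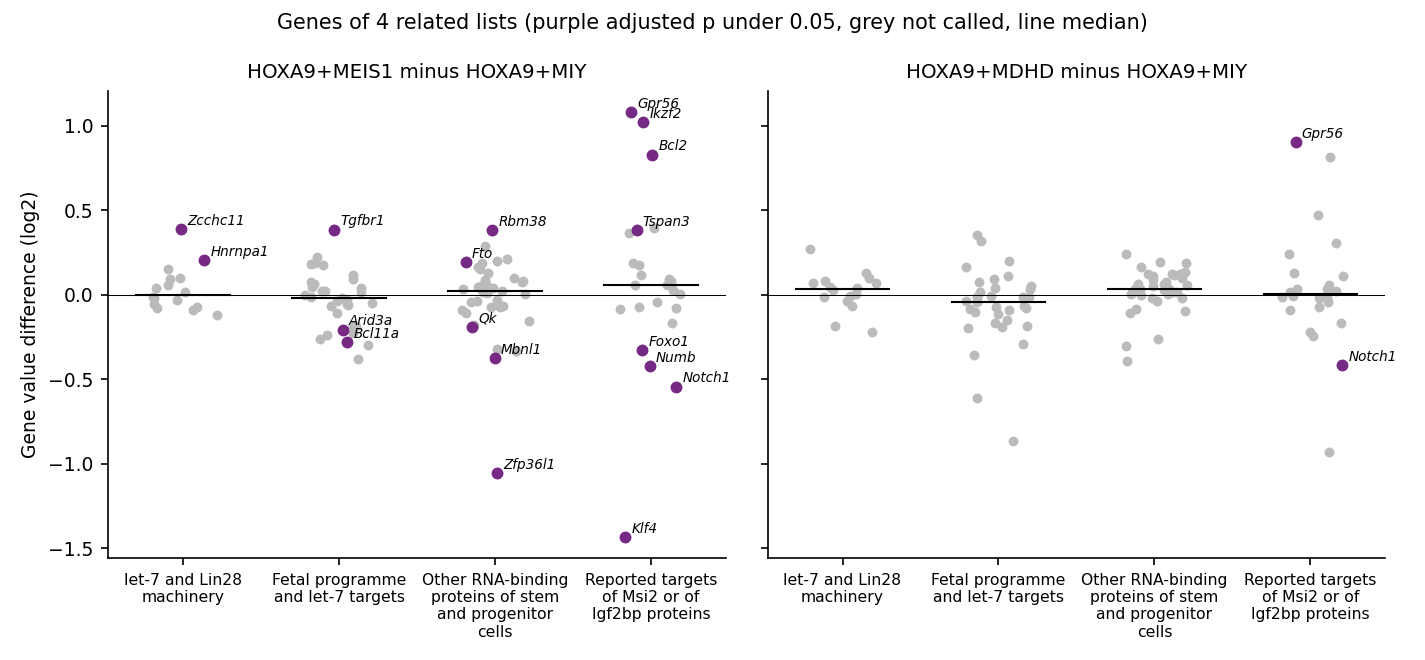
Log2 difference of each measured gene (points, vertical axis) in 4 lists of related genes (horizontal axis), for HOXA9+MEIS1 minus HOXA9+MIY on the left and HOXA9+MDHD minus HOXA9+MIY on the right, purple where called, with lines at the list medians. The medians lie between -0.02 and 0.06 on the left, and on the right Gpr56 and Notch1 are the called genes.

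Genes whose values followed a member over the 12 arrays were taken from those that spanned at least 1 log2 unit. For Msi2 they were Pdgfrb, a growth factor receptor also held by the list of stromal markers (Pearson r = 0.993), Cobll1 (0.972) and Stk39, a kinase (0.966), over 12 arrays that share conditions and weeks. With the condition means removed, r was 0.969, 0.837 and 0.846. For Igf2bp3 they were EG240055 (0.979), the potassium channel gene Kcng2 (0.965) and Paqr5, a progestin receptor gene (0.960), with 0.771, 0.591 and 0.548 after the condition means were removed. The highest r was 0.887 for Lin28b, 0.880 for Igf2bp1, 0.849 for Igf2bp2 and 0.822 for Hmga2. Each is the highest among 2886 candidate genes and a description, since no test was made. Msi2 and Igf2bp3 correlated with each other at r = 0.782 over the 12 arrays. Both were highest in HOXA9+MEIS1, so the condition means enter this r, and no value with those means removed is given.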

How the data were processed

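RNA of 12 cultures was hybridised to a mouse exon array. Per the submitters' processing notes, the authors used RMA and Affymetrix Expression Console, and the deposited values are log2 signals of 1256831 probe sets. Software versions and genome build are not given in the sources used here. Array medians lay between 6.258 and 6.301, and no 2 columns were identical. The number of arrays limits the precision.

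Of the probe sets, 318760 name 1 gene, 6684 several and 931387 none. Probe sets named for 1 gene with a mean above 6.26, the 50th percentile, were combined into 20711 gene values by median polish (R 4.3.3, at most 50 iterations). Conditions and weeks were compared with limma 3.58.1 (lmFit, eBayes with trend) on condition plus week over all 12 arrays, for gene values and for all 318760 probe sets, with Benjamini-Hochberg adjustment over all features and calls at an adjusted p under 0.05. For at-least folds, an array below the level counts as standing at it. The scripts were tested on simulated data first.

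The members and lists were chosen with earlier results of these data known. Named were all members, up to 4 called genes with the largest difference per list, and the 3 genes most correlated with a member; exceptions are stated. Alternatives were other filters, summaries, normalizations, designs and thresholds, single weeks and each array left out. Labelled replicate numbers gave no sign of pairing arrays and were not used as pairs in the main fits. The check of pairing gave r of -0.316 to -0.0148 for same-numbered arrays and -0.271 to 0.0481 for differently numbered ones. In each set 0 of 12 pairs were over 0.1. These r are not those of the raw signals, which lay between 0.9648 and 0.9895.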

Additional observations from a re-analysis of the deposited data

Results flagged for a closer look

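Hmga2 in HOXA9+MIY had 1 array apart from the other 3: replicate 2 of week 3 stood at 8.07 (log2 gene value), against 8.27, 8.29 and 8.31. The gap passed the 95% critical value of Dixon's test. Of 18 groups of 4 arrays checked, 1 passed it, and chance flags about 1 in 20 groups.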

How the results depend on the processing

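In HOXA9+MEIS1 minus HOXA9+MIY, leaving out 1 array kept Msi2 called at 0.97 to 1.06 and Igf2bp3 at 0.72 to 0.82, with 2 member genes called each time and 37 to 41 member probe sets. In HOXA9+MDHD minus HOXA9+MIY the range was 0 to 1 member genes and 1 to 24 probe sets (24 without replicate 2 of week 4 in HOXA9+MDHD, 1 without replicate 1 of week 4 in HOXA9+MIY). In HOXA9+MEIS1 minus HOXA9+MDHD it was 1 to 2 genes and 17 to 32 probe sets, and between weeks 0 to 1 and 12 to 20. Left-out arrays also moved uncalled values across 0: for HOXA9+MEIS1 minus HOXA9+MIY Igf2bp1 -0.019 to 0.059, Igf2bp2 -0.044 to 0.063 and Lin28b -0.20 to 0.076, for HOXA9+MDHD minus HOXA9+MIY Igf2bp2 -0.046 to 0.095, Igf2bp3 -0.060 to 0.052, Lin28b -0.054 to 0.22 and Hmga2 -0.010 to 0.091, for HOXA9+MEIS1 minus HOXA9+MDHD Igf2bp2 -0.081 to 0.060 and Hmga2 -0.018 to 0.084, and between weeks Lin28b -0.14 to 0.042. The call of Msi2 in HOXA9+MDHD minus HOXA9+MIY ended (0 member genes) at an adjusted p under 0.01 and with no week term. It ended too with groups compared alone, with week 4 alone and with eBayes without trend (adjusted p = 0.0530 by limma). With the replicate block it ended as well (adjusted p = 0.0588 by limma), although no sign of pairing was seen. Member probe sets called there were 1 at the threshold of 0.01, 3 with groups alone, and 0 with no week term, week 4 alone or no trend. In HOXA9+MEIS1 minus HOXA9+MDHD they were 15 at 0.01, 14 with no week term, 17 with groups alone, 18 with week 3 alone, 9 with week 4 alone and 15 without trend, and between weeks 8 at 0.01. With week 4 alone 1 member gene was called in HOXA9+MEIS1 minus HOXA9+MIY (Msi2, at 0.97, was not, with an adjusted p of 0.0546 by limma), and likewise 1 with the stricter filter, which leaves 4 Igf2bp3 probe sets. Between weeks 1 member gene was called with the mean of probe sets (Hmga2 0.24), their median (Msi2 -0.34) and a random replicate block (Hmga2 0.14). Member probe sets that differ from the rest of their gene numbered 11, 1 and 6 in HOXA9+MEIS1 minus HOXA9+MIY, HOXA9+MDHD minus HOXA9+MIY and HOXA9+MEIS1 minus HOXA9+MDHD, against 20, 3 and 12 with no filter, which tests more probe sets, and 18, 0 and 6 with the own spread. The sign turned for these values, of which Igf2bp3 in HOXA9+MEIS1 minus HOXA9+MIY was the called one. With the stricter filter HOXA9+MEIS1 minus HOXA9+MIY gave Igf2bp1 -0.059, Igf2bp2 -0.069, Igf2bp3 -0.030 and Hmga2 -0.050, HOXA9+MDHD minus HOXA9+MIY Igf2bp1 0.028, Igf2bp2 -0.0018, Igf2bp3 -0.036 and Hmga2 -0.071, HOXA9+MEIS1 minus HOXA9+MDHD Igf2bp1 -0.087, and the weeks Igf2bp3 0.038. With no filter they were Lin28b 0.0012 in HOXA9+MEIS1 minus HOXA9+MIY, -0.064 in HOXA9+MDHD minus HOXA9+MIY and 0.065 in HOXA9+MEIS1 minus HOXA9+MDHD, Igf2bp3 -0.0075 in HOXA9+MDHD minus HOXA9+MIY, Hmga2 -0.0087 in HOXA9+MEIS1 minus HOXA9+MDHD, and between weeks Igf2bp1 -0.062 and Lin28b 0.0019. The mean of probe sets gave Igf2bp1 -0.0060 in HOXA9+MEIS1 minus HOXA9+MIY and Hmga2 -0.0033 in HOXA9+MEIS1 minus HOXA9+MDHD. The median gave Hmga2 -0.088 in HOXA9+MEIS1 minus HOXA9+MIY, then Igf2bp1 0.022, Igf2bp2 -0.0083, Igf2bp3 -0.077 and Hmga2 -0.085 in HOXA9+MDHD minus HOXA9+MIY, Igf2bp2 0.044 and Hmga2 -0.0033 in HOXA9+MEIS1 minus HOXA9+MDHD, and Igf2bp1 -0.077 between weeks. Igf2bp3 was -0.022 with the filter on the HOXA9+MIY mean and -0.0013 with quantile normalization, both in HOXA9+MDHD minus HOXA9+MIY. Week 3 alone gave Igf2bp1 -0.074 in HOXA9+MEIS1 minus HOXA9+MIY and Igf2bp2 0.0039 in HOXA9+MEIS1 minus HOXA9+MDHD. Week 4 alone gave Igf2bp2 -0.095 and Lin28b 0.10 in HOXA9+MEIS1 minus HOXA9+MIY, Igf2bp1 0.026, Igf2bp2 -0.054, Igf2bp3 -0.049 and Lin28b -0.084 in HOXA9+MDHD minus HOXA9+MIY, and Lin28b 0.19 in HOXA9+MEIS1 minus HOXA9+MDHD. Where no construction is named, the cause was not tested. The own-spread test and the filter on the HOXA9+MIY mean were chosen after seeing the data, and Lin28b had no value under the stricter filter. Low signal limits Lin28b, whose gene value rests on 2 of its 10 probe sets, and Igf2bp3, on 12 of 26.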
